A study of Rattus norvegicus with 16 samples.

Results

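Among the transcripts measured in rat knee synovium, 13 were abundant in 3 of the 4 groups of knees and at least 6 times lower in the fourth, the saline-injected knees of the vehicle group. They were chosen by their measured levels, as counts-per-million (CPM). A transcript had to average at least 10 CPM in each of the other 3 groups, with those 3 means within 2-fold of each other. The contralateral vehicle mean had to be at least 6 times below the lowest of the 3, and its highest library had to lie below all of the other 12. These 13 came from 26956 transcripts kept by a filter on low counts, out of 46726 in the files. Because the rule used the means of all 4 groups, their differences are given as a description. Calls from the fit over all transcripts are printed for them, and these are no independent test.

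One knee of each rat was injected through the patellar ligament with monoiodoacetate (MIA), 2 mg in 50 µl of saline, and the opposite knee with 50 µl of saline alone. Synovial membrane was taken after 4 weeks. Rats were given a vehicle or an inhibitor, and the 2 knees under the 2 treatments made 4 groups of 4 libraries: contralateral (saline) vehicle, MIA vehicle, contralateral inhibitor, and MIA inhibitor. All rats thus carried an MIA knee, so a contralateral knee is not the knee of an untouched animal. The series title names fatty acid binding protein 5 as the protein inhibited, and the sources used here give neither the compound and its dose nor the strain, sex and age of the rats. Nothing in the labels states that each library of a group is a different animal, and the spread between libraries may in part be technical.

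The synovial membrane lines the joint. Its fibroblasts make lubricating proteins and hyaluronan, and its macrophages clear debris and release cytokines when the joint is injured. MIA blocks a glycolytic enzyme and kills cartilage cells, and is used in rats to model osteoarthritis pain. Fatty acid binding proteins carry lipids inside cells. One gene often gives several transcripts that share most of their exons, and a program that estimates transcript levels has to divide the reads of shared exons between them. The estimate of one transcript therefore depends on those of its partners. Gene names do not stand beside the transcripts in the files, and none of the identifiers matched the RefSeq table of rat genes. The transcripts are therefore called by their length in bases, which differs for each of the 13, and what their products do is not described. The cell types of the tissue could not be checked against marker genes for the same reason. In whole tissue, fewer cells of a type and less RNA per cell cannot be told apart.

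The contralateral vehicle libraries stood apart as a group. Their totals were 27641038 to 31142101 estimated counts. Those of MIA vehicle libraries were 29416041 to 37063328, and with inhibitor contralateral knees had 15614902 to 27916996 and MIA knees 21619501 to 36668131. The 100 most abundant transcripts held 41.5% to 53.1% of the counts in contralateral vehicle libraries and 25.7% to 34.1% in the other 12. The scaling factors (TMM) of contralateral vehicle libraries were 0.585 to 0.813, against 0.914 to 1.23 in the others, so their CPM values were scaled up and not down. In addition, 1 library of each group lay below all others on the second principal component, replicate 1 of both vehicle groups and replicate 4 of both inhibitor groups. The part of these library differences in the results below was not tested.

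Summed over the 13 transcripts, the level was 29.8 ± 8.88 CPM (SD, n = 4) in contralateral vehicle knees. It was 387 ± 18.2 CPM in MIA vehicle, 359 ± 15.8 CPM in contralateral inhibitor and 411 ± 43.6 CPM in MIA inhibitor knees (SD, n = 4 each). No contralateral vehicle library exceeded 40.1 CPM and no other library fell below 341 CPM. The longest and most abundant of the 13 supplied 27.9% of the sum in the other 12 libraries. In deposited transcripts-per-million (TPM), which are corrected for transcript length and carry no TMM scaling, the sum was 7.81 ± 4.71 in contralateral vehicle knees. In the other groups it was 211 ± 47.2, 156 ± 39.6 and 180 ± 22.8 TPM in the same order (SD, n = 4 each).

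**Figure D1:**
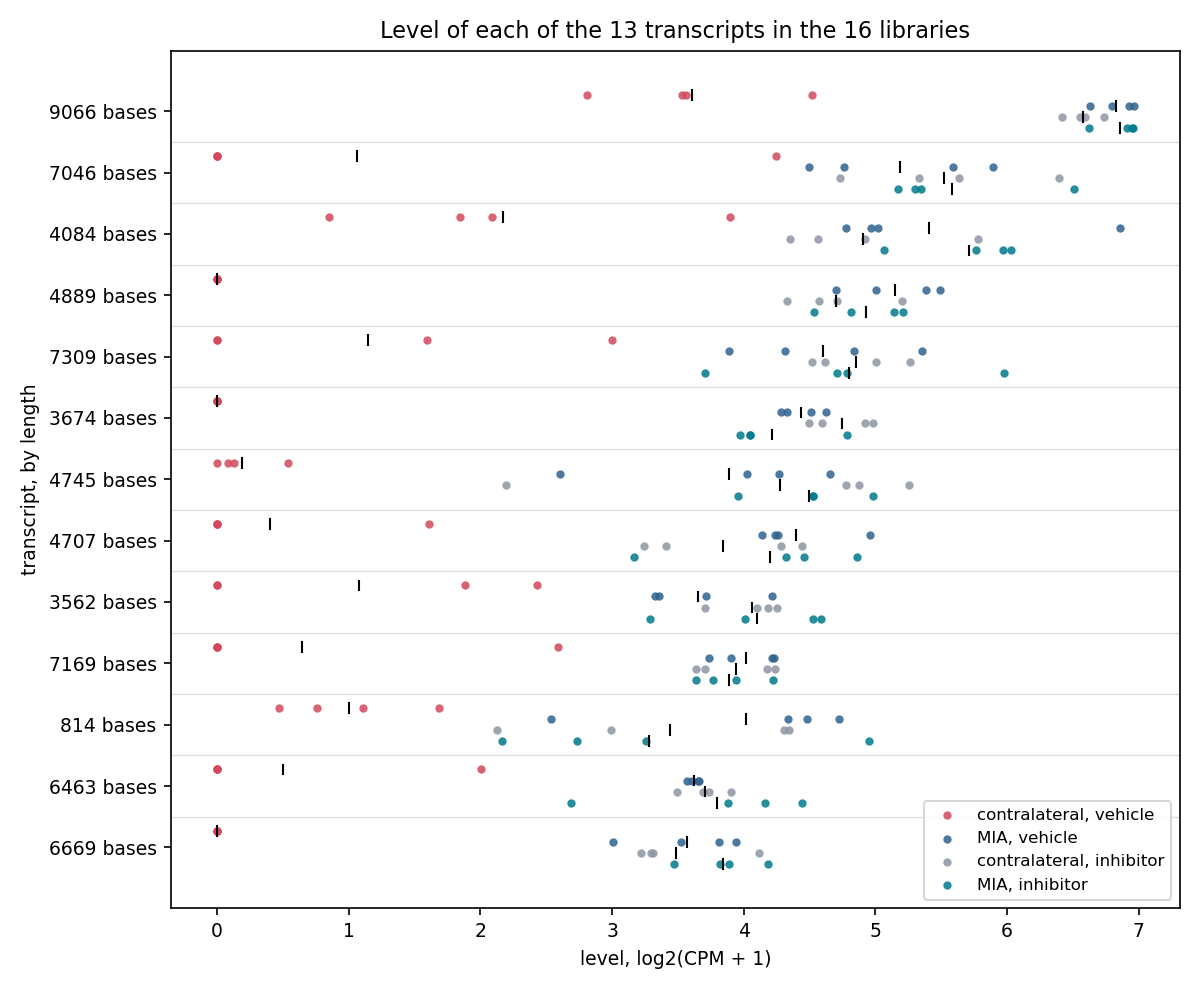
Level of each of the 13 transcripts as log2(CPM + 1), with 1 point per library coloured by group and a black bar at the mean of the log2 values of a group. Every contralateral vehicle point lies left of all 12 other points of its transcript, as the rule required, and many contralateral vehicle points sit at 0.

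The depletion was often complete in the estimates. Of the 52 values of these transcripts in contralateral vehicle libraries, 29 were exactly 0. None of the 156 values in the other libraries was, and the rule excluded a 0 there. There were 3 transcripts with no count in any contralateral vehicle library, 4 with none in 3 of the 4, 2 with none in 2, 1 with none in a single library and 3 with a count in all 4. Zeros were also counted among all 9608 kept transcripts that met the minimum and the 2-fold range of the rule. Of these, 1.94% had an estimate of 0 in at least 1 contralateral vehicle library. No count in any was found for 6, which include the 3 above. The 9608 were not chosen for low contralateral vehicle levels, whereas the rule favours zeros there. The share among the 9608 is therefore no test of the depletion, and nothing is read from the difference. An exact 0 from an estimation program can be a failed division of reads, so absence of these RNAs is not established.

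The 3 transcripts with no count in contralateral vehicle knees were those of 4889, 3674 and 6669 bases. The 4889-base transcript (ENSRNOT00000059673.6) was at 25.1, 44.1, 40.8 and 31.2 CPM in MIA vehicle libraries 1 to 4. It was at 19.1, 25.1, 35.9 and 22.7 CPM in contralateral inhibitor and at 27.1, 34.3, 36.0 and 22.2 CPM in MIA inhibitor libraries. The 12 libraries with counts thus spanned 2.31-fold, and the 3 groups overlapped. The 3674-base transcript (ENSRNOT00000080950.2) was steadier in MIA vehicle knees, at 21.8, 19.1, 23.7 and 18.4 CPM. Its contralateral inhibitor libraries held 30.6, 21.6, 23.2 and 29.3 CPM and its MIA inhibitor libraries 26.6, 15.5, 15.6 and 14.7 CPM. In MIA inhibitor knees replicate 1 stood above the other 3, which held nearly equal levels. The 6669-base transcript had 7.03, 13.1, 10.5 and 14.4 CPM in MIA vehicle, 8.33, 16.3, 8.94 and 8.84 CPM in contralateral inhibitor and 10.1, 13.8, 17.2 and 13.2 CPM in MIA inhibitor libraries. It was the least abundant of the 13 in CPM and lay closest to the minimum of the rule. Against a floor of 3 counts per library, a mean of 0.144 CPM, the lowest of the 3 group means was at least 179-fold higher for the 4889-base, at least 126-fold higher for the 3674-base and at least 73.7-fold higher for the 6669-base transcript. These bounds cover counting error only.

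In 4 more transcripts a single contralateral vehicle library carried all the counts of that group. For the 7046-base transcript this was replicate 1, with 18.0 CPM, close to the lowest other library at 21.6 CPM. Its other libraries held 21.6, 47.3, 58.4 and 26.1 CPM in MIA vehicle, 48.6, 39.2, 25.6 and 83.2 CPM in contralateral inhibitor and 90.2, 39.7, 35.1 and 38.5 CPM in MIA inhibitor knees. It was thus also among the more variable of the 13 outside contralateral vehicle knees. For the 4707-base and 7169-base transcripts the library with counts was replicate 3, with 2.06 and 5.02 CPM, and for the 6463-base transcript replicate 2, with 3.02 CPM. The 7169-base transcript was even across the other 12 libraries, from 11.5 to 17.8 CPM. The 4707-base transcript ran from 7.96 to 30.2 CPM and the 6463-base one from 5.46 to 20.8 CPM there. No contralateral vehicle library held counts for all 4 of these transcripts.

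The 9066-base transcript was the most abundant in CPM and kept counts in every library. In contralateral vehicle knees it was at 6.0, 10.5, 10.8 and 21.9 CPM. Its levels were 110, 124, 98.2 and 120 CPM in MIA vehicle, 95.6, 93.1, 106 and 84.6 CPM in contralateral inhibitor and 123, 119, 123 and 97.3 CPM in MIA inhibitor knees. The other 12 libraries spanned 1.46-fold, the narrowest range of the 13, with a coefficient of variation of 12.9%. Its contralateral vehicle mean was 10.9% of the MIA vehicle mean. The lowest of its 3 other means was 7.69 times its contralateral vehicle mean.

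The 4745-base transcript had the largest measured ratio, 104 between the lowest of the 3 other means and the contralateral vehicle mean. It held 0, 0.0959, 0.453 and 0.0576 CPM in contralateral vehicle libraries, which were 14.3 estimated counts in all. Elsewhere it was at 5.07, 18.3, 24.1 and 15.3 CPM in MIA vehicle, 26.4, 37.2, 28.3 and 3.58 CPM in contralateral inhibitor and 30.6, 22.0, 22.0 and 14.5 CPM in MIA inhibitor knees. Its 3 lowest values among the 12 came from MIA vehicle replicate 1, contralateral inhibitor replicate 4 and MIA inhibitor replicate 4, the libraries apart on the second component. The 4084-base transcript went the other way in these libraries, with 115, 53.9 and 64.3 CPM, against a mean of 34.1 CPM in the other 9. Of the 13 transcripts, 9 had their lowest value among the 12 in a library apart on the second component and 2 had their highest there. Those libraries are 3 of the 12. No share over all transcripts stands beside these counts, so they are not read as a trait of the 13.

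The 814-base transcript differed from the other 12 in being short and in having whole-number counts in all 16 libraries, within a tolerance of 1e-06. Its contralateral vehicle libraries held 49, 8, 28 and 12 reads, or 2.21, 0.384, 1.15 and 0.691 CPM. The other libraries held 4.82, 21.3, 19.2 and 25.4 CPM in MIA vehicle, 6.94, 18.8, 19.3 and 3.37 CPM in contralateral inhibitor and 5.65, 3.49, 8.56 and 29.99 CPM in MIA inhibitor knees. The gap between its highest contralateral vehicle library and its lowest other library was 1.16 CPM, the smallest of the 13. Per length it nevertheless had the highest mean of the 13 in MIA vehicle knees, at 71.1 ± 39.8 TPM (SD, n = 4). The 9066-base and 4084-base transcripts followed, at 27.6 ± 5.44 and 25.3 ± 16.6 TPM, and all 3 intervals of 1 SD overlapped. In MIA vehicle replicate 1 the 814-base transcript was at 14.7 TPM, below the 21.9 and 50.1 TPM of these 2. The lowest per length was the 6669-base transcript at 3.60 ± 1.39 TPM (SD, n = 4), beside 3.91 ± 0.431 TPM for the 6463-base one, a difference within their spread.

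The remaining 2 transcripts had no count in replicates 1 and 4 of the contralateral vehicle group. The 7309-base transcript held 2.01 and 6.99 CPM in replicates 2 and 3 of that group and 12.1 to 62.1 CPM in the other 12 libraries. The 3562-base transcript held 2.69 and 4.40 CPM in the same 2 libraries and 8.79 to 23.0 CPM in the others. Across the 12 other libraries, 5 of the 13 transcripts spanned more than 4-fold and 5 spanned less than 2.5-fold.

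The fitted changes were then set beside those of all transcripts. All 26956 transcripts were tested with edgeR's quasi-likelihood method, and a call needed an adjusted p under 0.05. Of all transcripts, 15.9% were called higher in MIA than in contralateral knees with vehicle, and 11 of the 13 were among them, a contrast the rule used. In contralateral knees, 12.1% of all transcripts were called higher with inhibitor than with vehicle, of 23.9% called in either direction, and 11 of the 13 were among the higher ones. The rule used this contrast too and fixed the direction of both. Both comparisons use the same 4 contralateral vehicle libraries. Over the 10 transcripts with a count in those libraries, the median log2 change was 3.53 in the first comparison, from 2.75 to 6.59, and 3.48 in the second, from 2.60 to 7.19. The median over all tested transcripts was 0.26 and 0.28. The 7046-base transcript was called in neither comparison, with log2 changes of 3.09 and 3.44 and edgeR adjusted p of 0.116 and 0.0937, and 1 contralateral vehicle library held all of its counts in that group. The 3562-base transcript was not called in the first comparison, at 2.75 ± 1.03 (SE), nor the 7169-base transcript in the second, at 3.51 ± 1.25 (SE).

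**Figure D2:**
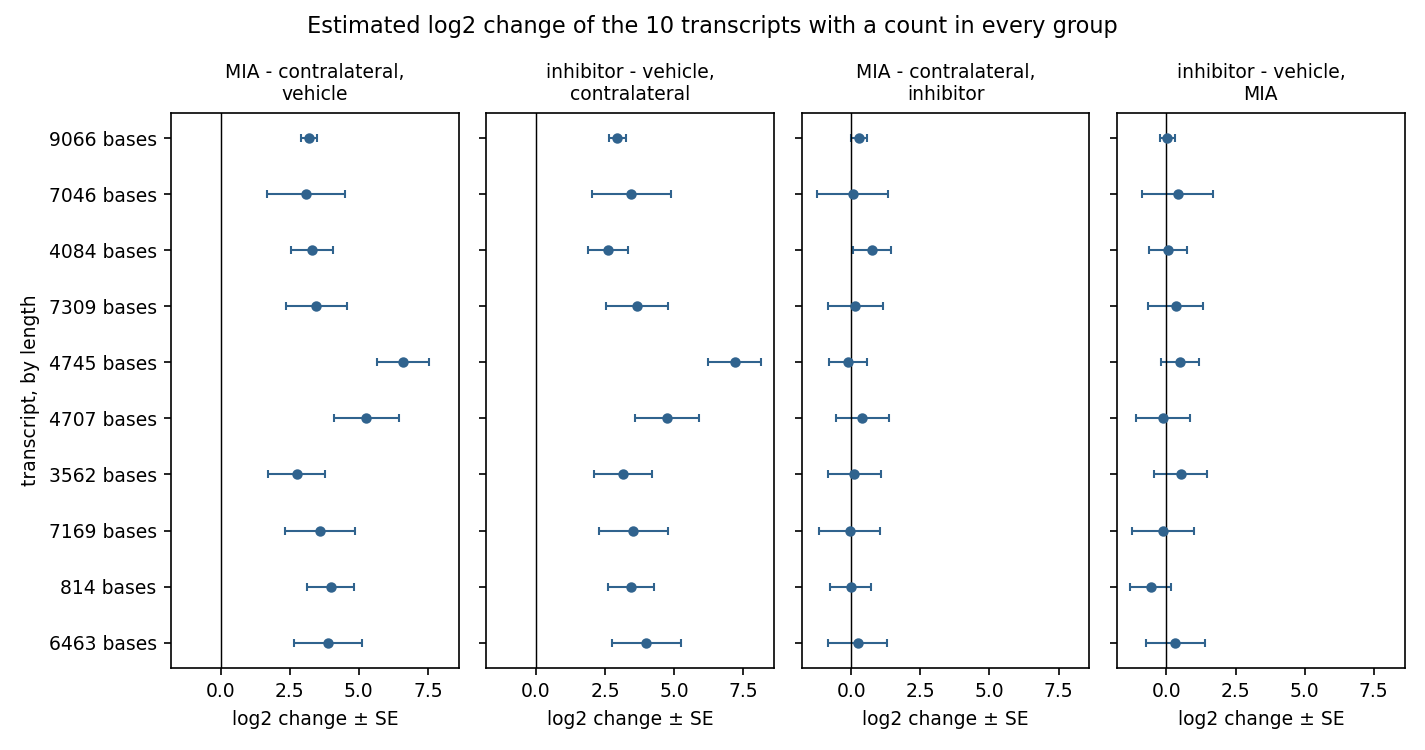
Log2 change of the 10 transcripts with a count in all 4 groups, in 4 comparisons, with bars of 1 standard error from the edgeR fit. The changes lie between 2.60 and 7.19 where contralateral vehicle knees are the reference, and between -0.57 and 0.76 where they are not used.

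Comparisons without contralateral vehicle knees gave small changes, which the rule allowed only within 2-fold. Between MIA and contralateral knees with inhibitor, 0.00371% of all transcripts were called and none of the 13, and their log2 changes ran from -0.53 to 0.76 with a median of 0.14. In this comparison 9 of the 13 were higher and 4 lower in MIA knees. The change of 0.76 belonged to the 4084-base transcript, with an SE of 0.69, and that of -0.53 to the 3674-base transcript, with an SE of 0.22. Between inhibitor and vehicle in MIA knees, 0% of all transcripts were called, and the log2 changes of the 13 ran from -0.57 to 0.52 with a median of 0.06. The highest of the 3 means lay in MIA inhibitor knees for 7 transcripts, in MIA vehicle knees for 4 and in contralateral inhibitor knees for 2. The interaction, the MIA-against-contralateral change with inhibitor minus that with vehicle, was called negative for 4% of all transcripts and for 6 of the 13. It was called positive for 5.89% of all transcripts and none of the 13, and 9.9% were called in either direction. The rule fixed the sign of this interaction, which was negative for all 13, so nothing is read from the count. These 6 were the transcripts of 9066, 4889, 3674, 4745, 814 and 6669 bases.

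The same rule found no transcript when any of the other 3 groups was put in the place of contralateral vehicle. Turned round, to find transcripts at least 6 times higher in 1 group than in all others, with at least 10 CPM there and no overlap of libraries, it found 725 for contralateral vehicle, 19 for MIA vehicle, 2 for contralateral inhibitor and none for MIA inhibitor knees. These counts are not comparable with the 13, since the turned-round rule asks for 10 CPM in 1 group in place of 3 and sets no 2-fold limit. On the way to the 13, 10500 kept transcripts met the minimum, 9608 of these met the 2-fold range, and 945 of those had all contralateral vehicle libraries below the other 12. Over all kept transcripts, 5.34% had their contralateral vehicle libraries below the other 12.

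The threshold of 6 decided most of the list. Just inside it were the transcripts of 4084, 3562 and 9066 bases, with ratios of 6.10, 6.77 and 7.69. Just outside were transcripts of 2256, 4225 and 6660 bases, with ratios of 5.86, 5.73 and 5.27. In all, 932 transcripts met every other criterion and missed this one. By the minimum of 10 CPM alone 31 missed, and the nearest of them, of 1840 bases, had a lowest mean of 9.86 CPM and no count in contralateral vehicle knees. By the 2-fold range alone 2 missed, and by the overlap of libraries alone 10. Without contralateral vehicle replicate 1 the rule gave 58 transcripts, 12 of the 13 among them, and without the 4 libraries apart on the second component it gave 31, with 8 of the 13.

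Properties that the rule did not use were then described. The transcripts were long, with a median of 4889 bases against 2681 over all kept transcripts and 2887 over the 9608 that met the minimum and the 2-fold range. Of the 13, 12 were longer than 3000 bases, against 47.5% of the 9608. Estimates were whole numbers throughout for 1 of the 13 (7.69%) and for 9.42% of the 9608. The others had fractional estimates, which show that reads were divided between transcripts. The 2 shares were close, so divided reads were not particular to the 13. These values do not measure how much of a transcript's reads was divided.

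The rows next to each transcript in the deposited order were examined for their lengths and levels. The files do not say whether neighbouring rows belong to the same gene. A row directly next to it and within 60 bases of its length was found for 7 of the 13 transcripts, against 17.6% of the 9608, a distance chosen after the lengths were seen. They had 8 such rows in all, of which 6, next to 5 of the transcripts, had their highest group mean in contralateral vehicle knees. Next to the other 2, the 7354-base row beside the 7309-base transcript was listed at 0 in every group, and the 4662-base row beside the 4707-base transcript at 0 except for a mean of 0.700 CPM in MIA inhibitor knees. How often such rows beside the 9608 were highest in contralateral vehicle knees was not counted. The 6 of 8 are therefore not read as a trait of the 13. The 9066-base transcript followed a row of 9087 bases, the 7046-base one a row of 7073 bases and the 6463-base one a row of 6484 bases. The 9087-base and 7073-base rows were called in neither comparison with contralateral vehicle knees. The 9087-base row was at 114 ± 27.7 CPM there (SD, n = 4), from 73.5 to 132 CPM, and reached no more than 15.1 CPM in any other library. The 7073-base row averaged 33.4 ± 22.3 CPM in contralateral vehicle knees (SD, n = 4) and 1.57 to 3.57 CPM in the other groups. Its contralateral vehicle libraries ran from 1.36 to 53.0 CPM and overlapped MIA vehicle libraries, which reached 8.40 CPM. The 6484-base row averaged 21.9 CPM in contralateral vehicle knees and 0 to 3.96 CPM in the others. It too overlapped, from 5.84 CPM in contralateral vehicle knees against up to 8.18 CPM in MIA vehicle knees. The 7145-base row after the 7169-base transcript averaged 72.0 CPM there and 24.2 to 32.8 CPM in the others. The remaining 2 rows, of 7220 and 3725 bases, averaged only 2.82 and 3.02 CPM in contralateral vehicle knees and overlapped other libraries. Of the 6 rows, the 7145-base one was called lower both in MIA knees with vehicle and in contralateral knees with inhibitor. The 6484-base and 7220-base rows were called lower only in contralateral knees with inhibitor, and the 3725-base row in neither comparison.

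**Figure D3:**
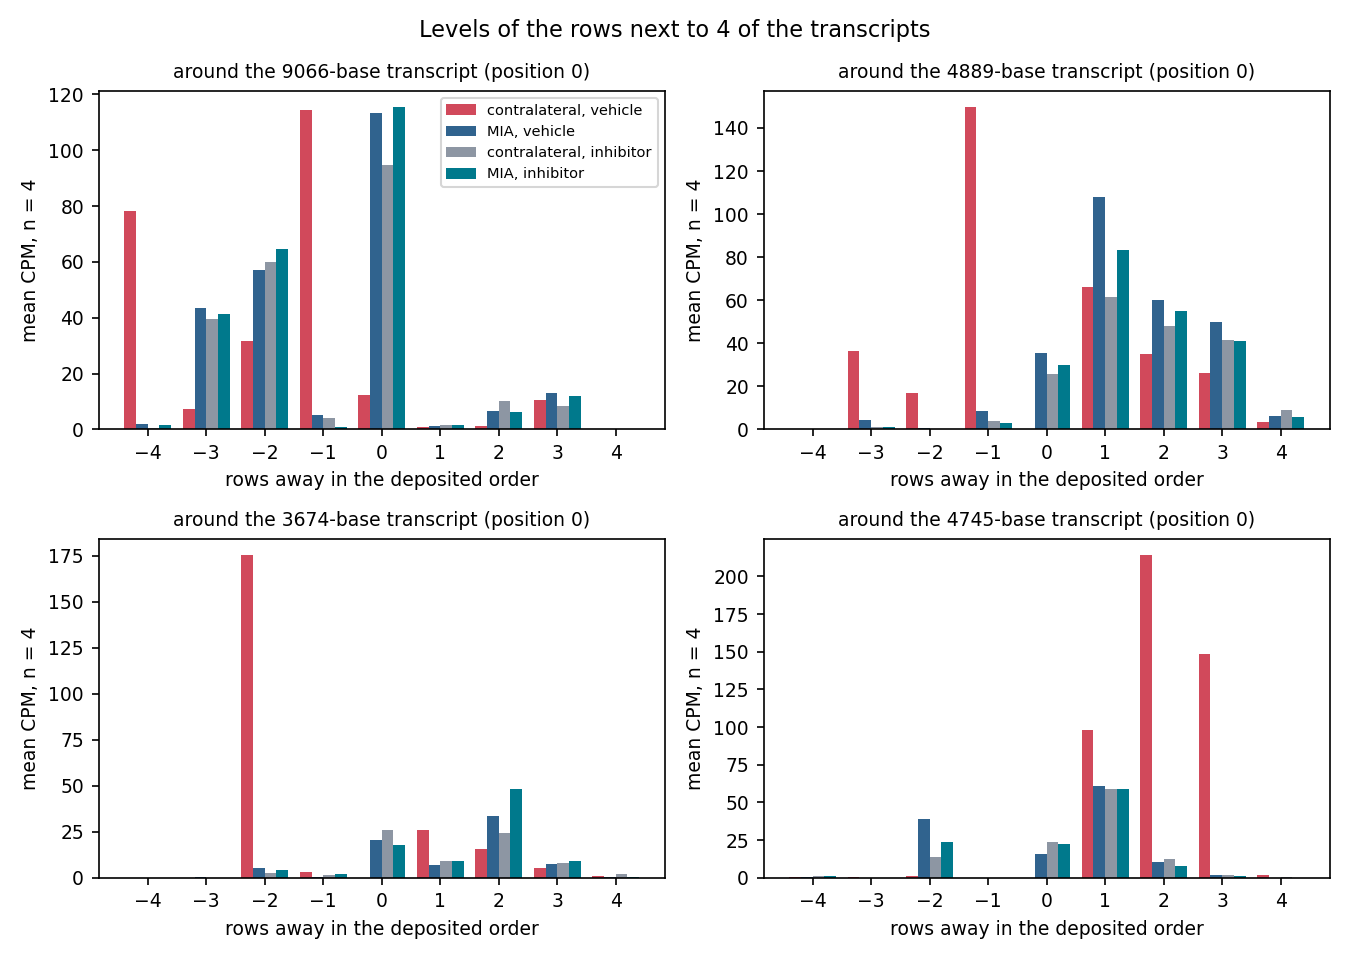
Mean CPM of 4 libraries in each group for the rows up to 4 places before or after 4 of the transcripts, each at position 0. These 4 were drawn because at least 1 nearby row is high in contralateral vehicle knees (red) alone, where the transcript is low. An example is the row before the 9066-base transcript at 114 CPM. The other transcripts of the list had no such row within 4 places and are not shown.

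Within 4 rows on either side, 4 of the 13 transcripts had at least 1 row raised in contralateral vehicle knees alone by the turned-round rule, against 10.6% of the 9608. These were the transcripts of 9066, 4889, 3674 and 4745 bases. Of the 104 rows around the 13, 8 were of this kind, all of them around these 4. The share was 1.55% over all rows in the files, many of which are too low to reach 10 CPM. Of the 26956 kept transcripts, 725 were of this kind. Beside the 4889-base transcript, rows of 6344, 6149 and 4181 bases averaged 150, 36.5 and 17.1 CPM in contralateral vehicle knees. In the other 12 libraries the 6344-base row held at most 22.6 CPM. Near the 3674-base transcript a row of 3887 bases averaged 175 ± 84.2 CPM in contralateral vehicle knees (SD, n = 4) and held at most 13.8 CPM in any other library. Near the 4745-base transcript, rows of 2073 and 1361 bases averaged 214 ± 111 and 149 ± 75.1 CPM there (SD, n = 4 each). A row of 9720 bases near the 9066-base transcript averaged 78.1 ± 34.2 CPM in contralateral vehicle knees (SD, n = 4) and at most 6.62 CPM elsewhere in a single library.

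Other neighbours were low where the transcript was low, and the calls went both ways. Of the 26 rows directly next to the 13, 19 were kept and tested. In the comparison of MIA with contralateral knees in vehicle rats, 3 of these were called higher and 2 lower, where 15.9% and 13.2% of all transcripts were called. With inhibitor against vehicle in contralateral knees, 1 was called higher and 5 lower, where 12.1% and 11.8% were called. Within 4 rows on each side, 73 of the 104 rows were kept. Of these, 12 were called higher and 7 lower in the first comparison, and 6 higher and 12 lower in the second, beside the same shares over all transcripts. With either window, the higher calls in the first comparison were near the share over all transcripts. Nothing about the neighbours is read from these counts. The directly adjacent row called higher in both comparisons was the 4109-base row before the 4707-base transcript, at 0.336 CPM in contralateral vehicle knees and 1.64 to 3.16 CPM in the other groups. A row of 5006 bases, 2 rows before the 4745-base transcript, was also called higher in both, at 0.890 CPM in contralateral vehicle knees and 38.8, 13.5 and 23.95 CPM in MIA vehicle, contralateral inhibitor and MIA inhibitor knees. A row of 9435 bases, 3 rows before the 9066-base transcript, held 7.22 CPM in contralateral vehicle knees and 39.5 to 43.4 CPM in the other groups, and was called in neither.

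Each transcript was then added to the 4 rows on each side, a sum that also dilutes the change of any single row. The summed level in the other 3 groups, relative to contralateral vehicle knees, had a median log2 ratio of 0.23 over the 13 blocks, from -1.97 to 1.72, beside a median of 0.09 around the 9608 transcripts. For the transcripts alone, the median log2 ratio was 3.60 over the 10 with a count in contralateral vehicle knees. The contralateral vehicle libraries lay below all other 12 for 2 blocks, above all of them for 3, and overlapped them for 8. Without the transcript itself, the neighbouring rows summed to more in contralateral vehicle knees than in the others for 8 blocks and to less for 5. With 1 row on each side the median log2 ratio of the sums was 0.67, and with 2 rows also 0.67. The contralateral vehicle libraries then lay below all others for 5 blocks with either window, and above all others for 0 blocks with 1 row and 2 with 2 rows. No share around the 9608 stands beside these counts of blocks, with any window, so they are not read as a trait of the 13. Around the 9066-base transcript the block summed to 256 CPM in contralateral vehicle knees and 235 CPM on average in the other groups, and the transcript supplied 4.81% of the former and 45.9% of the latter. The 7046-base transcript supplied 3.82% and 31.4% of blocks of 118 and 147 CPM. Around the 3674-base and 4745-base transcripts the blocks were higher in contralateral vehicle knees, at 226 against 80.2 CPM and 465 against 119 CPM. The block around the 814-base transcript remained low there, at 8.01 against 26.4 CPM, although its libraries overlapped the others. The 2 blocks whose contralateral vehicle libraries stayed below all others were those around the 7309-base transcript, at 128 against 266 CPM, and the 4084-base transcript, at 100.9 against 159 CPM.

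**Figure D4:**
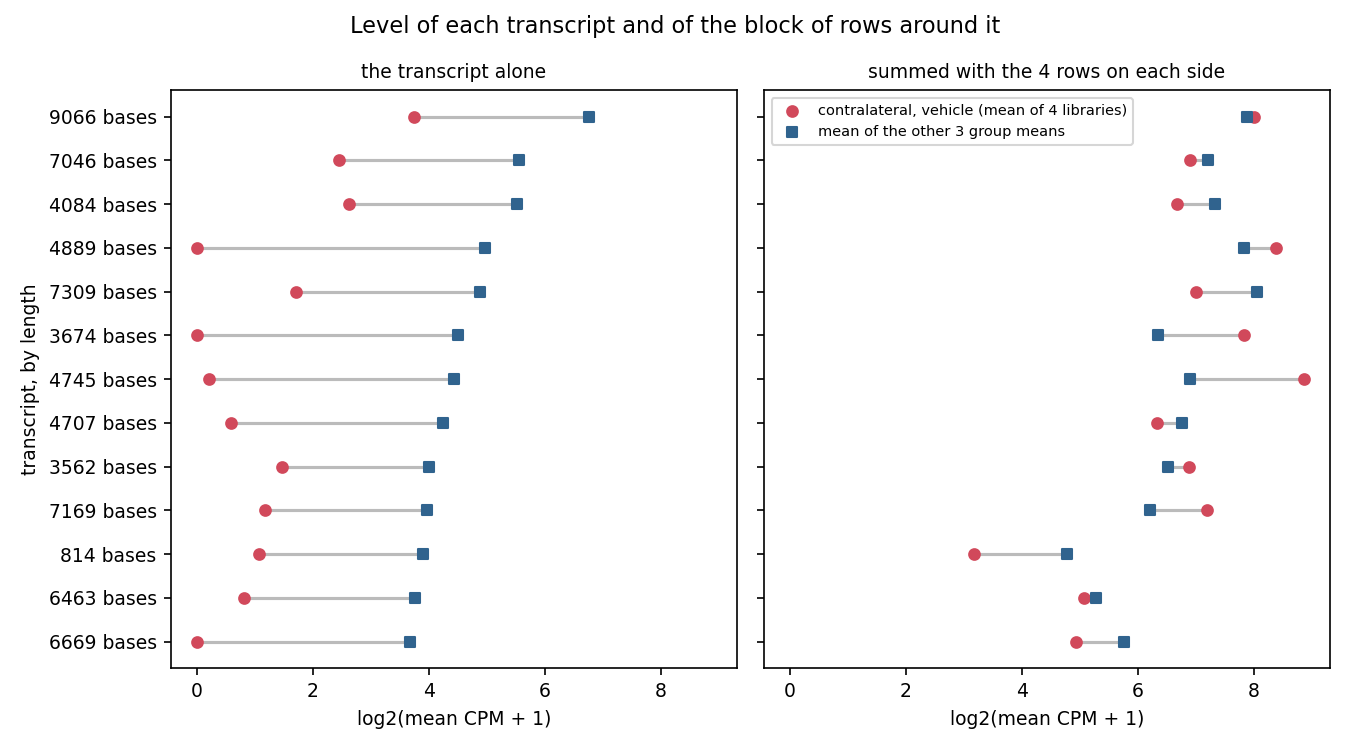
Mean level of each transcript alone (left) and summed with the 4 rows on each side (right), as log2(mean CPM + 1), in contralateral vehicle knees (red circles) and as the mean of the other 3 group means (blue squares). The wide gaps on the left were required by the rule. They shrink or change direction on the right, where the added rows dilute the change of any single row. The 9066-base block was at 256 against 235 CPM, and its libraries overlapped.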

How the data were processed

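Each of the 16 libraries had 1 deposited table in Salmon's format, per the file headers. Per the submitters' processing notes, tools included Salmon 1.4.0, fastp 0.20.1 and DESeq2 1.30.0, with the build mRatBN7.2. The sources used here give neither Salmon's options nor the transcript release. The deposited expected counts are the authors' unscaled estimates of reads per transcript. In the deposited TPM, the authors' estimates are corrected for effective length and brought to the same sum in each library. The deposited lengths and effective lengths are in bases.

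Expected counts were rounded, transcripts kept by filterByExpr with 4 groups (edgeR 4.0.16, limma 3.58.1, R 4.3.3) and libraries scaled by TMM. The edgeR quasi-likelihood F test (robust, two-sided) used 1 mean per group over all 16 libraries, with Benjamini-Hochberg adjustment. Each standard error was taken from the size of the log2 change over the square root of F. The fit and the rule were tested on simulated data. The members, lists and windows were chosen with earlier results of these data known. Transcripts were to be named by gene, taking the most abundant and most depleted members; as 0 identifiers matched a gene, the first 2 under the second criterion are given by identifier. Planned gene and marker lists are not analysed here. Same-numbered knees of the inhibitor group may be paired, from correlations of their deviations from the group means of 0.227 to 0.617. The highest joined the 2 replicates 4, both apart on the second component, so it need not mean the same rat. The main fit was unpaired, and only the replicate block matched libraries by number, in vehicle and inhibitor groups alike. Alternatives were DESeq2 1.42.0 and its size factors, limma-voom, other thresholds, TPM, fewer libraries and a replicate block.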

Additional observations from a re-analysis of the deposited data

Results flagged for a closer look

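In 10 of 53 sets of 4 libraries checked, each holding 1 transcript or the summed level in 1 group, 1 library lay far from the other 3 by Dixon's ratio, above its 95% critical value. Chance alone flags about 1 in 20 such sets, and in 4 of the 10 the other 3 libraries were all at 0. These 4 were in contralateral vehicle knees: the 7046-base transcript in replicate 1 at 18.0 CPM, the 4707-base and 7169-base transcripts in replicate 3 at 2.06 and 5.02 CPM, and the 6463-base transcript in replicate 2 at 3.02 CPM.

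In MIA vehicle knees the 4084-base transcript was at 115 CPM in replicate 1, where the other 3 libraries held 26.4 to 31.4 CPM. The 4707-base transcript was at 30.2 CPM in replicate 2 of that group, above 16.7 to 18.2 CPM in the others. In MIA inhibitor knees the 7046-base transcript was at 90.2 CPM in replicate 1, above 35.1 to 39.7 CPM, and the 3674-base transcript at 26.6 CPM in the same library, above 14.7 to 15.6 CPM. The 9066-base transcript was at 97.3 CPM in MIA inhibitor replicate 4, below 119 to 123 CPM. The 6669-base transcript was at 16.3 CPM in contralateral inhibitor replicate 2, above 8.33 to 8.94 CPM.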

How the results depend on the processing

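The number of transcripts chosen moved with the thresholds and with single libraries. It was 53 with deposited TPM in place of CPM (5 of the 13 among them), 43 with a contralateral vehicle mean at most 1/4 of the lowest other mean, 24 and 5 with minimum means of 5 and 20 CPM, and 31 (8 of the 13) without the 4 libraries that stood apart in the principal components, which was tried only after seeing the data. Leaving out 1 library at a time gave 11 to 58; the 58 came without contralateral vehicle replicate 1 and held 12 of the 13. The summed level was 12.1 times higher in the lowest other group than in contralateral vehicle knees, 19.9 times with TPM and 9.99 to 13.7 times without single libraries. TPM differ from the CPM values in the length correction and in having no TMM scaling. Which of these moved the results was not tested. The number called of the 13 ranged from 8 to 12 without single libraries in each of the first 2 comparisons and from 5 to 9 for the interaction, and none was called in the comparisons without contralateral vehicle knees under any alternative run. With only the 8 libraries compared, 6 were called between inhibitor and vehicle in contralateral knees. The median log2 change over all 13, 3.90 and 3.64, ranged from 3.47 to 5.20 (without contralateral vehicle replicates 4 and 3) and from 3.21 to 5.38 without single libraries. With a replicate block it was 6.78 and 5.23, with 13 and 12 called, 0 in the comparisons without contralateral vehicle knees and 7 for the interaction. Same-numbered vehicle knees had correlations from 0.0117 to 0.217, the highest of them close to the lowest with inhibitor, 0.227. The vehicle numbers were not taken to pair knees, although the block matched them by number. The block changed no call count by over 1.5 times. No share over all transcripts stands beside the calls under these alternatives, so their counts are not read as a trait of the 13. At this depth a count of 0 in a contralateral vehicle library allows up to 3 counts.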

Other observations

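Outside the 13, the 5 kept transcripts whose profile over the 16 libraries was most like the mean of the 13, on log2(CPM + 1), had Pearson correlations of 0.960 to 0.990, given as a description over libraries that share the same groups. The closest, of 2898 bases, was at 61.5 CPM in contralateral vehicle knees and 94.7 to 98.4 CPM in the other groups, a ratio of 1.54. The second, of 1840 bases, was listed at 0 in every contralateral vehicle library and averaged 9.86 to 10.9 CPM in the other groups.

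The opposite pattern was found for 13 kept transcripts with no count in any of the 12 other libraries. The 2 highest were ENSRNOT00000089142.2 (2185 bases), at 27.2 to 171 CPM in contralateral vehicle knees, and ENSRNOT00000117239.1 (4530 bases), at 45.7 to 140 CPM.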
